A study of Mus musculus with 18 samples.

Results

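The synaptic vesicle release machinery was described here as 73 genes of the 18193 genes measured on arrays of mouse dorsal root ganglia (DRG). They were taken by gene symbol and not by a value, though the set was chosen with earlier results of these data known. It held the numbered synaptotagmins, syntaxins, VAMPs, complexins and syntaxin-binding proteins. It also held the SNAP-25 family, *Nsf* and its SNAP adaptors, the Unc13, RIM, Rab3 and SV2 proteins and the synapsins. Each gene was read from the brightest of the probe sets that the array annotation names for it alone, and all 73 had one. Dim probe sets were kept, so all 73 genes entered the test.

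RNA of whole DRG from all spinal levels was hybridized to Affymetrix mouse arrays in 3 mouse lines that lack a voltage-gated sodium channel of sensory neurons, with 3 knockout (KO) and 3 littermate arrays per line, 18 arrays in all. In the Nav1.7 line, floxed *Scn9a* was deleted by Cre under Advillin, a gene of sensory neurons. The Nav1.8 (*Scn10a*) and Nav1.9 (*Scn11a*) lines were global null mutants. The labels give every littermate as wild type, and the study used adult mice of both sexes. The study counts its Nav1.7 replicates as mice. Strain, the floxed or Cre alleles that the Nav1.7 littermates may carry and, in the other lines, whether 1 array held 1 animal are not stated in the sources used here. The p-values speak only to the spread among these arrays, part of which may be technical.

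Release of transmitter rests on membrane fusion by SNARE proteins. A VAMP on the vesicle zips together with a syntaxin and SNAP-25 on the plasma membrane, syntaxin-binding proteins of the Sec1/Munc18 family and Unc13 proteins assemble and prime the complex, and complexins and the calcium sensors of the synaptotagmin family hold it and trigger it. RIM and Rab3 proteins hold vesicles at the active zone, synapsins keep a reserve of vesicles, SV2 proteins are vesicle membrane proteins, and NSF with its SNAP adaptors takes used SNARE complexes apart. Other syntaxins and VAMPs serve the Golgi, endosomes, lysosomes and autophagosomes. The somata of sensory neurons lie in the DRG, and their proteins serve terminals in the skin and the spinal cord.

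The samples were checked first. All 14 pan-neuronal markers of a list (such as *Tubb3*, *Uchl1* and *Prph*) were measured, and none passed the test in any line. At an unadjusted p under 0.05 (limma) there were 4 for the Nav1.7 line (beside 16.3% of all genes). There were 2 for the Nav1.8 line (beside 8.09%) and 1 for the Nav1.9 line (beside 12.1%). With so few markers, a count of 0 does not show that neuron content was equal. Their mean level per array lay between 12.68 and 12.77 on the log2 scale over the 18 arrays. Of the targeted genes, *Scn10a* was 7.84 in Nav1.8 KO against 9.41 in its littermates and *Scn11a* 11.001 in Nav1.9 KO against 12.86, with no overlap of arrays. *Scn9a* was 12.25 in Nav1.7 KO against 12.31 in littermates, with overlapping arrays. Which exons its probe set reads against the floxed ones is not given, so it does not check that label. *Avil* itself, whose promoter drives the Cre, was 12.22 in Nav1.7 KO and 12.86 in littermates, with no overlap. *Xist*, the RNA of the inactive X chromosome, split the arrays: all Nav1.7 littermates, Nav1.7 KO replicates 1 and 3 and Nav1.8 KO replicates 2 and 3 were high, and the other 11 were low. Array medians were 6.33 to 6.36, and the number of arrays limits the precision.

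In Nav1.7 KO DRG, 11 of the 73 release genes (15.1%) passed the test against littermates, beside 4.33% of all genes (limma, Benjamini-Hochberg adjusted p under 0.05 over all genes). They were 5 genes that fell, *Syt6*, *Syt7*, *Rims1*, *Nsf* and *Syt1* (6.85%, beside 2.51% of all genes), and 6 that rose, *Stx16*, *Rims3*, *Syt9*, *Stxbp4*, *Vamp8* and *Stx17* (8.22%, beside 1.81%). The changes were small, 1.12-fold to 1.36-fold, and 0 of the 73 changed more than 1.5-fold at an unadjusted p under 0.01 (beside 0.676% of all genes). The 3 KO and 3 littermate arrays did not overlap in all 11, and in 33 of 73 release genes (45.2%, beside 20.4% of all genes). Of the 73, 25 had an unadjusted p under 0.05 (34.2%, beside 16.3% of all genes). The family as a whole had no direction: 36 log2 fold changes were positive and 37 negative, with a median of -5.3e-05 beside 0.01 over all genes. In whole ganglia, fewer cells of a type and less RNA per cell cannot be told apart.

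**Figure D1:**
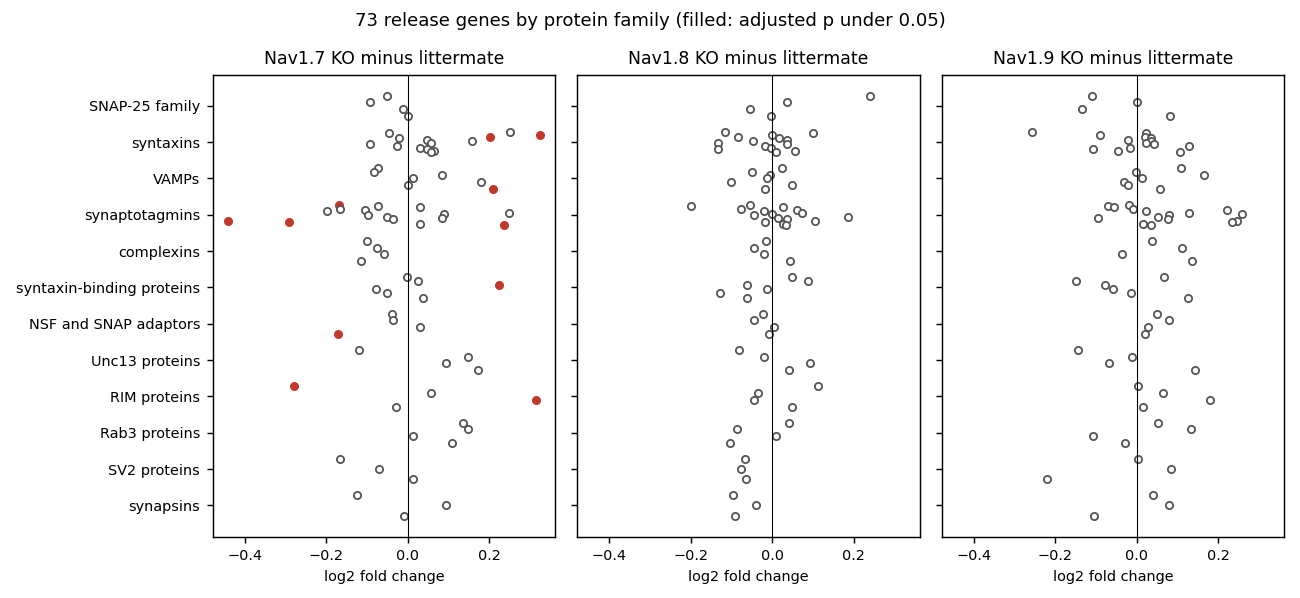
Log2 fold change, KO minus littermate, of the 73 release genes by protein family in the Nav1.7, Nav1.8 and Nav1.9 lines (1 point per gene, filled where the adjusted p was under 0.05). Filled points occur only in the Nav1.7 panel, 5 below 0 and 6 above, and lie in the syntaxins, VAMPs, synaptotagmins, syntaxin-binding, NSF and RIM families.

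The synaptotagmin family held 4 of the 11. Of 16 synaptotagmins, 3 fell, 1 rose and 12 did not pass. *Syt1*, the sensor of fast, synchronous release, read 12.14, 12.17 and 12.10 in littermates and 11.98, 11.95 and 11.97 in Nav1.7 KO (log2 intensity, replicates 1 to 3). Every KO array lay below every littermate and below the 12 arrays of the other lines (-0.17 on the log2 scale, standard error 0.036, adjusted p = 0.0128 from limma). *Syt7*, the high-affinity sensor of asynchronous release, facilitation and lysosome exocytosis, read 12.05, 12.03 and 12.06 in littermates and 11.75, 11.68 and 11.83 in KO. The littermates were tight and all KO arrays lay below them (1.22-fold lower, adjusted p = 0.0104 from limma). *Syt6*, a synaptotagmin best known from exocytosis in sperm, showed the largest change among the 73, from 7.26, 7.18 and 7.22 to 6.73, 6.81 and 6.79. That is a fall of 0.44 on the log2 scale (standard error 0.078, 1.36-fold, adjusted p = 0.00322 from limma), again with no overlap. *Syt9*, which also senses calcium at synapses and on dense-core vesicles, moved the other way, from 11.04, 11.05 and 10.92 to 11.28, 11.17 and 11.28. It was 1.18-fold higher in KO (adjusted p = 0.0296 from limma). *Syt2*, the close relative of *Syt1*, had a log2 fold change of -0.10 with overlapping arrays and did not pass (adjusted p = 0.457 from limma).

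The SNAREs of the synaptic fusion core that were measured did not pass, although the KO arrays of some lay apart from their littermates and some passed under an alternative. *Snap25*, the plasma membrane SNARE cut by botulinum toxin A, was 13.68, 13.69 and 13.70 in littermates and 13.59, 13.60 and 13.59 in Nav1.7 KO. The KO arrays were all lower, by 0.09 on the log2 scale, with an adjusted p of 0.163 from limma. *Vamp1* (-0.07) and *Vamp2* (-0.08), the vesicle SNAREs, did not pass (adjusted p = 0.622 and 0.652 from limma). *Stx1a*, their plasma membrane partner, was 10.61, 10.56 and 10.52 in littermates and 10.77, 10.74 and 10.66 in KO, all KO arrays higher, and did not pass either (0.16, adjusted p = 0.0856 from limma). All 4 complexins and all 4 genes of the SNAP-25 family had a negative log2 fold change and all 4 Rab3 genes a positive one, and none of them passed. The signs depend in part on the probe set. For *Rab3a* 1 of 2 and for *Rab3d* 1 of 4 probe sets were negative, and for *Snap23* 2 of 3 and *Snap25* 1 of 2 were positive. Nothing is read from these family signs. For *Cplx1*, the complexin that clamps fast release, the values were 13.73, 13.80 and 13.80 in littermates and 13.68, 13.71 and 13.64 in KO (adjusted p = 0.157 from limma). With a trend and robust prior in limma, *Snap25* (adjusted p 0.0297), *Cplx1* (0.0301) and *Stx1a* (0.0446) passed, and *Stx1a* also with dim genes left out (0.0429).

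The SNARE genes that passed all rose, and none of them is a SNARE of the synapse itself. Of 14 syntaxins, 2 rose, 0 fell and 12 did not pass. *Stx16*, a SNARE of the trans-Golgi network, read 9.13, 9.30 and 9.15 in littermates and 9.55, 9.64 and 9.36 in Nav1.7 KO. The KO arrays spread wider than the littermates but stayed above them (1.25-fold, adjusted p = 0.0115 from limma). *Stx17*, which fuses autophagosomes with lysosomes, went from 8.27, 8.11 and 8.21 to 8.43, 8.43 and 8.34, with the highest adjusted p of the 11 (0.20, adjusted p = 0.0461 from limma). *Vamp8*, a SNARE of endosomes, lysosomes and the secretory granules of non-neuronal cells, was the 1 of 7 VAMPs that passed. It read 8.87, 8.84 and 8.73 in littermates and 9.02, 8.97 and 9.09 in KO, with no overlap (1.16-fold higher, adjusted p = 0.0235 from limma). Of 6 syntaxin-binding proteins, 1 rose: *Stxbp4*, known as a partner of syntaxin 4 in insulin-regulated traffic, from 7.80, 7.71 and 7.70 to 7.98, 8.02 and 7.89 (1.17-fold, adjusted p = 0.0149 from limma). *Vamp8* is also made by immune cells. A list of 16 macrophage and immune markers had a mean level per array of 7.06 to 7.41 in Nav1.7 littermates and 7.44 to 7.85 in Nav1.7 KO, with a median log2 fold change of 0.38 and 0 of 16 past the threshold (9 at an unadjusted p under 0.05). Muscle, fat and blood markers ranged from 6.32 to 7.55 in littermates and from 6.51 to 8.64 in KO (0 of 10 passed). The part of these cells in the *Vamp8* result was not tested.

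Of 4 RIM genes of the active zone, 1 fell and 1 rose. *Rims1*, the large scaffold that ties Rab3 vesicles, Unc13 proteins and calcium channels together, read 10.03, 9.98 and 10.04 in littermates and 9.85, 9.62 and 9.74 in Nav1.7 KO. All KO arrays were lower, with a wide spread (-0.28, standard error 0.0684, adjusted p = 0.0291 from limma). *Rims3*, a short RIM that holds only the end of the protein, read 9.70, 9.74 and 9.65 in littermates and 9.98, 10.002 and 10.05 in KO. It rose by 0.31 (standard error 0.0628, adjusted p = 0.00778 from limma), and *Rims2* and *Rims4* did not pass. *Nsf*, the ATPase that recycles SNARE complexes, read 12.66, 12.68 and 12.70 in littermates and 12.52, 12.49 and 12.52 in KO. Its replicates were tight, so a fall of 0.17 (1.13-fold) had an adjusted p of 0.00575 from limma. Its adaptors *Napa* and *Napb* both had a log2 fold change of -0.04 (adjusted p = 0.692 and 0.806 from limma). *Unc13a*, the main priming factor, and *Sv2a*, the vesicle protein bound by levetiracetam, were lower in every KO array and did not pass (-0.12 and -0.17, adjusted p = 0.207 and 0.0569 from limma). *Sv2a* passed with quantile scaling (0.0401), with dim genes left out (0.026), with the trend and robust prior (0.0486) and without littermate replicate 2 (0.0455). The synapsin genes *Syn1* (-0.12) and *Syn2* (0.09) and *Rab3a* (0.14) did not pass.

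**Figure D2:**
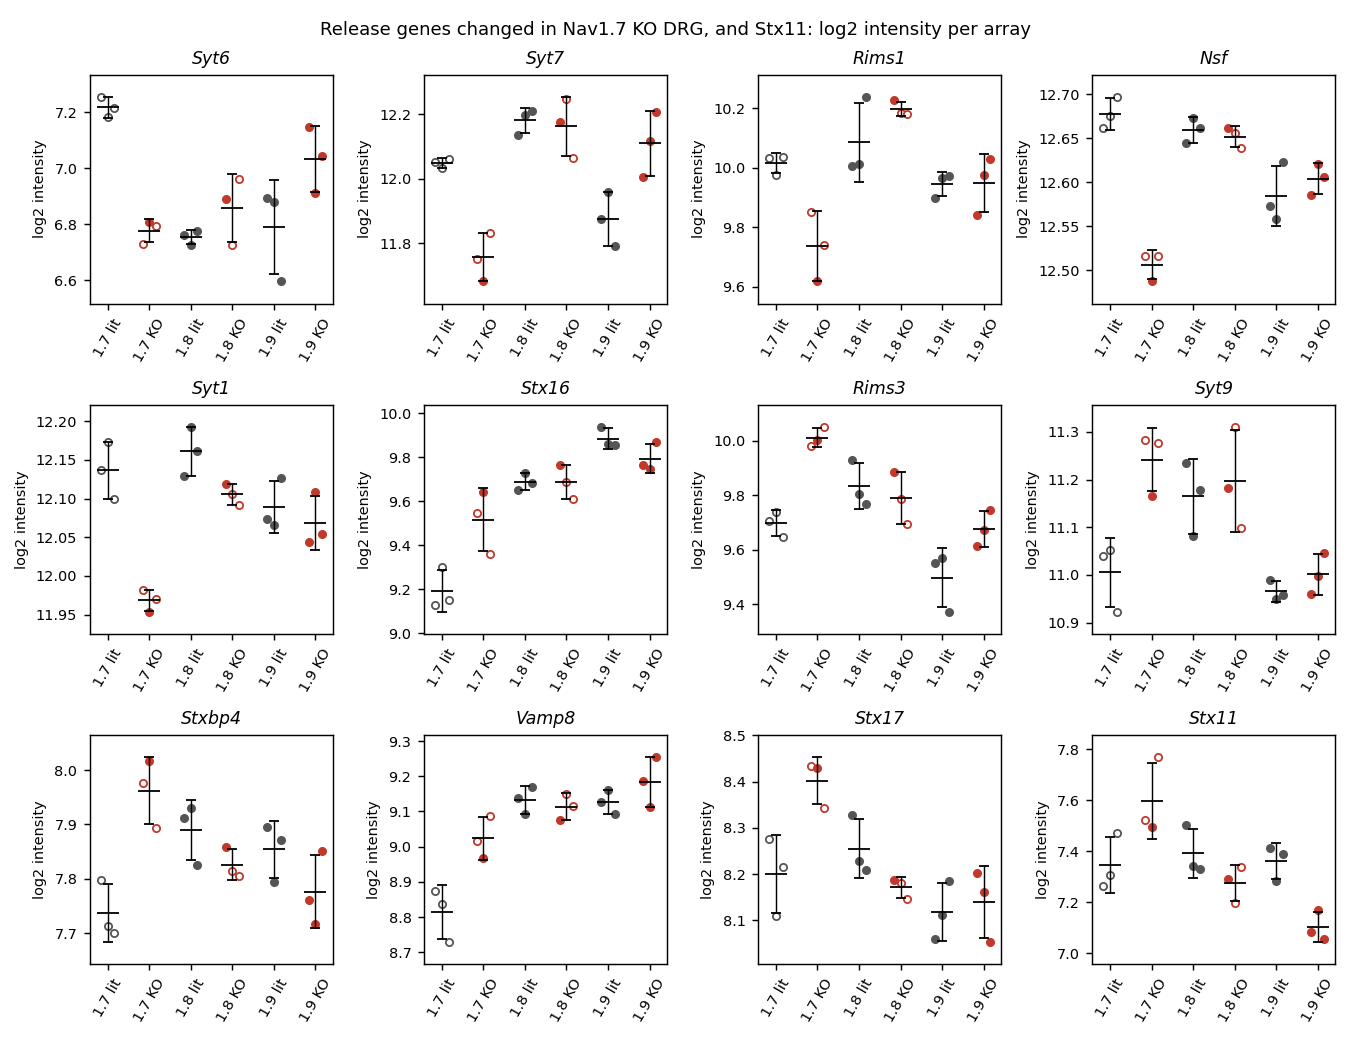
Log2 intensity per array of the 11 release genes that passed the test in Nav1.7 KO DRG, and of Stx11, in the 6 groups (lit, littermate; points are arrays, open for Xist-high and filled for Xist-low arrays; lines and whiskers are mean and SD, n = 3; each panel has its own axis, which does not start at 0). KO arrays of the Nav1.7 line lie apart from their littermates in the 11 genes, and Syt6 and Stx16 in KO lie nearer to the other lines than the Nav1.7 littermates do.

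Single arrays were left out in turn, and 3 of the 11 genes passed each time. *Syt6*, *Nsf* and *Rims3* passed with any 1 of the 6 arrays left out (highest adjusted p 0.0178, 0.0299 and 0.0414 from limma). *Syt7* did not pass without Nav1.7 KO replicate 2 (0.0546), the *Xist*-low array, nor did *Syt1* (0.0501) or, without littermate replicate 2, *Syt1* again (0.0651). *Stx16* was lost without littermate replicate 1 (0.0566) or 3 (0.0524) or KO replicate 2 (0.0613). *Rims1* was lost without littermate replicate 1 (0.0882), 2 (0.0565) or 3 (0.0914) or KO replicate 2 (0.131) or 3 (0.0616), and passed without KO replicate 1. *Stxbp4* was lost without littermate replicate 2 (0.0603) or 3 (0.0653) or KO replicate 1 (0.0515) or 2 (0.071). *Vamp8* was lost without littermate replicate 2 (0.0503) or 3 (0.11) or KO replicate 1 (0.0605) or 3 (0.0849), and *Syt9* without littermate replicate 1 (0.0552) or 3 (0.128) or KO replicate 1 (0.105) or 3 (0.0838). *Stx17* was lost without littermate replicate 2 (0.181) or 3 (0.0954) or KO replicate 1 (0.141) or 2 (0.14). With a term for *Xist* class, 9 of the 11 passed, and *Rims1* (0.0702) and *Stx17* (0.0948) did not. With the 6 arrays of the line fitted alone, *Syt6* and *Rims3* passed and the other 9 had adjusted p values of 0.0511 to 0.188.

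Other probe sets of the 11 genes were read one by one, since a gene was tested on 1 of them (180 probe sets for the 73 genes, p adjusted over all probe sets). For *Syt7*, 3 of 4 probe sets passed, all lower (-0.36, -0.29 and -0.22), and the fourth, the dimmest, was at -0.02. For *Rims1*, both passed (-0.28 and -0.50). For *Nsf*, all 4 were negative, from -0.26 to -0.13, and 1 passed. All 4 probe sets of *Syt1* were negative and 1 passed. For *Stx17*, all 4 were positive and the 1 that passed, at 0.31, was not the one used in the gene test, which had an adjusted p of 0.0701 over all probe sets. The bright *Syt6* probe set stood nearly alone: a dim one was at -0.25 (adjusted p = 0.0548 from limma), and the other two, dimmer still, were at 0.03 and 0.07. Both falling *Syt6* probe sets are of the types that the array maker marks as shared between transcripts or sequences, and without such probe sets its log2 fold change was 0.03. The second *Rims3* probe set was at -0.07, and the other three of *Stxbp4* lay between -0.03 and 0.04, so these rises were seen in 1 probe set each. *Stx16*, *Syt9* and *Vamp8* have 1 probe set. When each gene was read as the average over its probe sets, *Syt6* (0.0911), *Nsf* (0.0564), *Rims3* (0.279), *Stxbp4* (0.68) and *Syt1* (0.406) did not pass (adjusted p from limma). Outside the 11, a dimmer probe set passed in 3 genes whose brightest did not: *Cplx2* at -0.29 (adjusted p = 0.04 from limma, brightest -0.08), *Stxbp5*, tomosyn, at -0.22 (0.0271, brightest -0.08) and *Stx11* at 0.46 (0.0114, brightest 0.25).

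**Figure D3:**
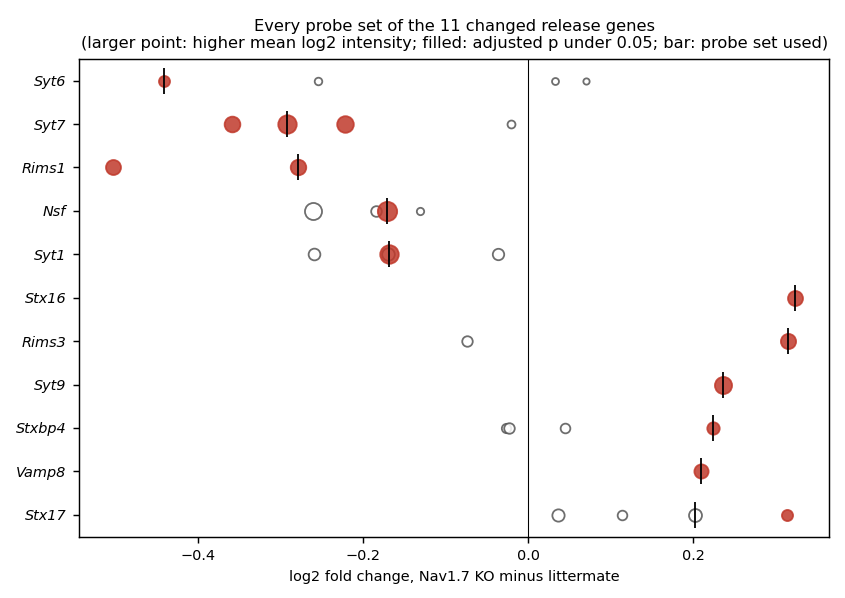
Log2 fold change in Nav1.7 KO DRG of every probe set of the 11 changed release genes (size follows the mean log2 intensity, filled points passed at an adjusted p under 0.05 over all probe sets, the bar marks the probe set used for the gene). The probe sets of Syt7, Rims1, Nsf and Syt1 all lie below 0, and those of Syt6, Rims3 and Stxbp4 lie on both sides.

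Sequences upstream of the changed genes were searched for the letters of 4 transcription factor motifs in windows of 300 bases, 250 before and 50 after each RefSeq transcript start (GRCm38.p6), on both strands. Windows were given for 57 of the 73 release genes and for 10 of the 11 that changed. The letters TGGAAA, the start of the NFAT consensus, stood in a window of 13 of the 57 (22.8%, beside 23.9% of all genes with a window), among them *Syt6*, which fell, and *Stx16*, which rose. The Runx letters TGTGGT stood in 11 of 57 (19.3%, beside 18.9% of all genes), of the changed genes in *Stxbp4*. The letters of the cyclic AMP element (TGACGTCA) and of the NRF1 motif each stood in 3 of 57 (5.26%, beside 2.03% and 1.07% of all genes) and in 0 of the 10. These matches are a description of the letters, not of a site in use. *Syt6* and *Stx16* each also had a window at another transcript start that held none of the 4 motifs. A window with the motif is shown for the gene with the largest fall, the gene with the largest rise and the gene with the Runx letters, 5′ to 3′ on the strand of the gene, with the motif in capitals (in the *Stxbp4* window on the opposite strand). They lie at chr3:103574995-103575294 (plus strand), chr2:174076801-174077100 (plus strand) and chr11:90638059-90638358 (minus strand), and the motifs begin at -199, -200 and -170 from the start.
Syt6: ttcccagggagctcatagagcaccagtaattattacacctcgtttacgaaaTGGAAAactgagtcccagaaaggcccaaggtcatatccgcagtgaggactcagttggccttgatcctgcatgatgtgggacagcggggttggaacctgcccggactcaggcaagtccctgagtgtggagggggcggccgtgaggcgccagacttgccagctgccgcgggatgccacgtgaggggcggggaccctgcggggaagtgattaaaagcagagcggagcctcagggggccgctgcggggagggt
Stx16: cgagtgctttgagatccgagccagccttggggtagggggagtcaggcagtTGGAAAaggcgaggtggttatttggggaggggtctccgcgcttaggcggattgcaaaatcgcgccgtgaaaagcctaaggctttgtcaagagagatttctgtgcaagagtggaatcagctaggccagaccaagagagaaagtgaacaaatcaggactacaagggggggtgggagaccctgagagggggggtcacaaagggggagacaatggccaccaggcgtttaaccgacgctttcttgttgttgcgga
Stxbp4: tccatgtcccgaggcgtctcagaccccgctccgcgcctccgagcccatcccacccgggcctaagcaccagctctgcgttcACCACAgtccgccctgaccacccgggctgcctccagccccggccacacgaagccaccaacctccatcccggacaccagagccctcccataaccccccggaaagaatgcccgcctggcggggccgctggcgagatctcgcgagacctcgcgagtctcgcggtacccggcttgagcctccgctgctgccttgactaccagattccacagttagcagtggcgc

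Neighbours of the machinery were read from 2 lists chosen with results of these data known, and their counts in Nav1.7 KO DRG stand beside 4.33% of all genes, so nothing is read from them. Of 42 measured genes of other synaptic vesicle and active zone proteins, 2 fell, 1 rose and 39 did not pass (median log2 fold change -0.02). *Cadps2*, a priming factor of dense-core vesicles, fell by 0.31 (adjusted p = 0.00316 from limma) and *Synpr*, the vesicle protein synaptoporin, by 0.26 (adjusted p = 0.00952 from limma). *Sytl2*, a Rab27 effector, rose by 0.16 (adjusted p = 0.0303 from limma). Of 31 endocytosis genes, 1 passed, *Amph*, an adaptor of clathrin-coated vesicles, with a log2 fold change of -0.16 (adjusted p = 0.0459 from limma). In the Nav1.8 and Nav1.9 KO DRG 0 genes of either list passed. Markers of neuron types came from lists also chosen with results of these data known, and their counts stand beside 2.51% of all genes that fell and 1.81% that rose. In Nav1.7 KO DRG, of 11 measured non-peptidergic markers 6 fell and 1 rose (mean level per array 10.08 to 10.57 in KO and 10.29 to 10.85 in littermates). Of 9 peptidergic markers 4 rose and 0 fell (10.39 to 10.47 and 10.22 to 10.32). Among 13 genes of myelinated touch and position neurons, *Ntrk2* and *Necab2* fell and 0 rose (9.20 to 9.31 in KO and 9.36 to 9.41 in littermates). Their part in the release genes was not tested.

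In Nav1.8 KO DRG, no release gene passed (0 of 73, beside 0.0165% of all genes, 3 genes, limma). Of the 73, 6 had an unadjusted p under 0.05 (8.22%, beside 8.09%), and the arrays did not overlap in 10 (13.7%, beside 13.8%), both shares close to those of all genes. The log2 fold changes were positive in 29 and negative in 44, beside 7786 positive and 10407 negative over all genes. The smallest p belonged to *Stxbp5l*, the tomosyn that blocks SNARE assembly, which read 8.55, 8.44 and 8.50 in littermates and 8.39, 8.31 and 8.40 in KO (-0.13, adjusted p = 0.495 from limma). *Snap23*, the SNAP-25 relative of non-neuronal secretion, had the largest fold, from 7.004, 7.01 and 7.10 to 7.11, 7.35 and 7.39, with no overlap (1.18-fold, adjusted p = 0.538 from limma). *Stx2* (-0.13) and *Syt10* (-0.20) came next and did not pass. For *Snap23*, the KO values 7.35 and 7.39 came from *Xist*-high arrays and 7.11 from an *Xist*-low array. Its log2 fold change ranged from 0.040 to 0.33 over the alternatives run. All littermates of this line were *Xist*-low, so genotype and sex coincide in part in this comparison.

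In Nav1.9 KO DRG, again 0 of 73 passed (beside 0.473% of all genes, 86 genes), 12 had an unadjusted p under 0.05 (16.4%, beside 12.1%) and the arrays did not overlap in 18 (24.7%, beside 18%). The log2 fold changes were positive in 45 and negative in 28, beside 9306 and 8887 over all genes. *Syt7* was higher in KO, 12.01, 12.12 and 12.21 against 11.88, 11.96 and 11.79, with no overlap (0.23, adjusted p = 0.108 from limma), and of the alternatives run passed only with a trend and robust prior in limma (0.0396). *Syt6* was higher too, 7.15, 6.91 and 7.04 against 6.89, 6.88 and 6.60, with no overlap (0.24, adjusted p = 0.209 from limma). *Stx11*, a SNARE of the granules of immune cells, was lower, 7.08, 7.17 and 7.06 against 7.41, 7.28 and 7.39 (-0.26, adjusted p = 0.167 from limma), and *Unc13a* was lower in every KO array (-0.14, adjusted p = 0.227 from limma). The macrophage and immune list had a median log2 fold change of -0.15 in this line, 7.49 to 7.68 per KO array against 7.64 to 7.79, and 9 of 20 nerve injury genes fell (8.18 to 8.26 per KO array against 8.71 to 9.42). The 13 markers of myelinated neurons, 0 of which passed here, were at 9.29 to 9.34 per KO array against 9.12 to 9.24. The part of these lists in the values was not tested.

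The lines were then compared directly, as the KO effect in Nav1.7 minus that in another line. Against Nav1.8, 4 release genes differed (5.48%, beside 2.15% of all genes): *Syt6* (-0.55, adjusted p = 0.0162 from limma), *Rims1* (-0.39, 0.0483), *Rims3* (0.36, 0.0483) and *Stxbp4* (0.29, 0.0434). Against Nav1.9, 6 differed (8.22%, beside 2.82%): *Syt6* (-0.69, adjusted p = 0.00243 from limma), *Syt7* (-0.53, 0.00271), *Stx11* (0.51, 0.0158), *Stx16* (0.41, 0.0285), *Stxbp4* (0.30, 0.0265) and *Nsf* (-0.19, 0.0362). Between Nav1.8 and Nav1.9, 0 differed (beside 0.0385%), and 6 had an unadjusted p under 0.05 (8.22%, beside 9.04%). Each pair of these comparisons shares the arrays of a line. *Syt7* and *Syt6* fell in Nav1.7 KO and were higher in Nav1.9 KO. *Stx11* showed the reverse, higher in Nav1.7 KO (7.52, 7.50 and 7.77 against 7.26, 7.31 and 7.47, 0.25, adjusted p = 0.0847 from limma) and lower in Nav1.9 KO, and passed the test of the difference while neither effect passed on the brightest probe set. Both of its probe sets passed that test (0.51 and 0.70, adjusted p = 0.0214 and 0.00975 over all probe sets from limma), and the dimmer one passed in Nav1.7 KO alone (0.46, 0.0114). Of these calls, *Syt7*, *Stx11* and *Syt6* against Nav1.9 passed with any 1 of 12 arrays left out (highest adjusted p 0.00907, 0.0449 and 0.00831), and *Syt6* against Nav1.8 was lost when Nav1.8 KO replicate 3 was left out (0.052). The others were lost with several single arrays left out: *Rims1* with 10 of 12 (up to 0.133), *Rims3* with 10 (up to 0.136), *Stxbp4* with 9 (up to 0.112) against Nav1.8 and 8 (up to 0.0751) against Nav1.9, *Nsf* with 10 (up to 0.0877) and *Stx16* with 7 (up to 0.0757). Several differences also rested on the brightest probe set. As the average over probe sets, *Stxbp4* differed by 0.068 from Nav1.8 and by 0.0042 from Nav1.9 (adjusted p 0.749 and 0.989), *Rims3* by 0.19 (0.242), *Nsf* by -0.16 (0.324) and *Syt6* by -0.18 and -0.24 (0.197 and 0.0556). Without the shared types of probe set, *Syt6* differed by -0.046 from Nav1.8 and by 0.040 from Nav1.9 (0.858 and 0.877). With a term for *Xist* class none of the 4 against Nav1.8 passed (*Syt6* -0.59, 0.0809, *Rims1* 0.345, *Rims3* 0.349 and *Stxbp4* 0.359, adjusted p from limma).

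**Figure D4:**
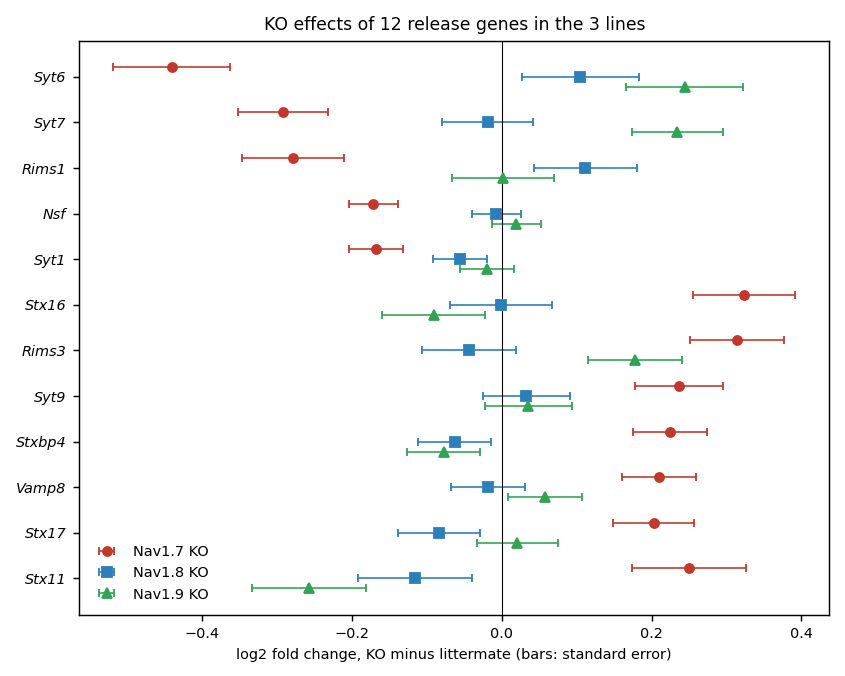
KO effects (log2 fold change, bars are standard errors from limma) in the 3 lines of the 11 release genes that changed in Nav1.7 KO DRG and of Stx11. The Nav1.7 points of Syt6 and Syt7 lie below 0 and their Nav1.9 points above it, and Stx11 is the other way round.

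The littermates of the 3 lines also differed from each other in release genes. Nav1.7 and Nav1.8 littermates differed in 23 of 73 (31.5%, beside 23.3% of all genes), Nav1.7 and Nav1.9 littermates in 12 (16.4%, beside 12.2%) and Nav1.8 and Nav1.9 littermates in 13 (17.8%, beside 12.8%). Between Nav1.7 and Nav1.8 littermates, 7 genes were higher (9.59%, beside 7.96%) and 16 lower (21.9%, beside 15.4%) in Nav1.7. *Stx4a*, a plasma membrane SNARE outside synapses (-0.37, adjusted p = 0.0004 from limma), and *Rab3d*, the Rab3 of secretory granules (-0.33, 0.000211), were among the lower, and *Snap25* (0.14, 0.00744) among the higher. Against both Nav1.8 and Nav1.9 littermates, comparisons that share the 3 Nav1.7 arrays, *Syt6* was higher in Nav1.7 (0.46 and 0.43). *Stx16* (-0.50 and -0.69), *Vamp8* (-0.32 and -0.31), *Rab3d* (-0.33 and -0.20), *Snap29* (-0.20 and -0.32), *Unc13b* (-0.16 and -0.23) and *Unc13d* (-0.23 and -0.19) were lower. *Sv2c* was lower too. This SV2 protein, a receptor of botulinum toxin A, had the widest gap: 6.39, 6.43 and 6.70 in Nav1.7 littermates, 7.28, 7.57 and 7.46 in Nav1.8 and 7.07, 7.22 and 7.71 in Nav1.9 littermates (1.9-fold lower and 1.78-fold, adjusted p = 0.000341 and 0.00108 from limma). In Nav1.7 KO it was 6.37, 6.48 and 6.69, overlapping with its littermates. *Stx16* was 9.19 in Nav1.7 littermates, 9.52 in Nav1.7 KO, 9.69 in Nav1.8 and 9.88 in Nav1.9 littermates. *Syt6* was 7.22, 6.78, 6.75 and 6.79 in the same order, and *Vamp8* was 8.81, 9.02, 9.13 and 9.13. In these 3 genes the Nav1.7 KO mean lay nearer to the littermates of the other lines than the Nav1.7 littermate mean did. The Nav1.7 littermates were all *Xist*-high and those of the other lines all *Xist*-low, so line and sex cannot be told apart in these comparisons. A term for *Xist* class, set by the KO arrays alone, gave counts of 8, 7 and 14, beside 1256, 863 and 2389 over all genes. Among the Nav1.8 and Nav1.9 littermates, all *Xist*-low, *Syn1* (0.39), *Rims3* (0.34), *Stxbp3* (-0.34) and *Stx7* (-0.25) had the smallest p (adjusted p = 0.00326, 0.00406, 0.0043 and 0.00514 from limma).

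**Figure D5:**
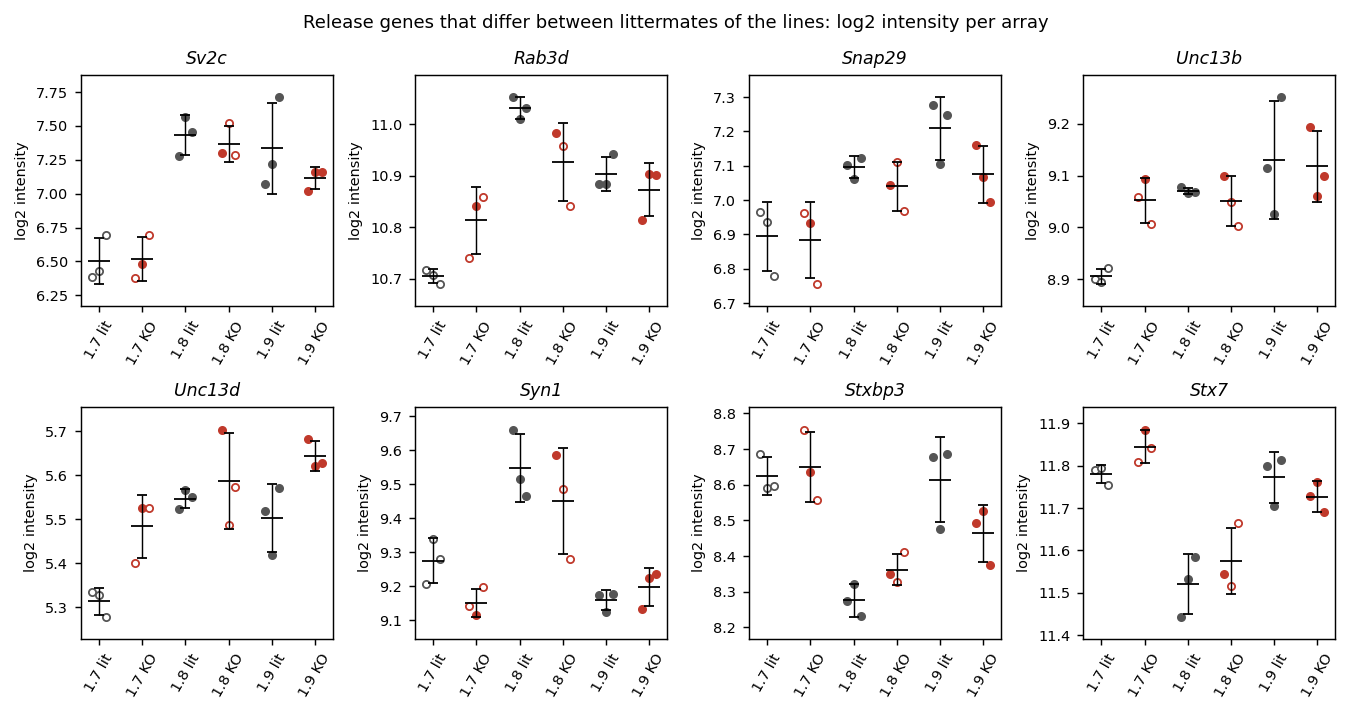
Log2 intensity per array of 8 release genes that differ between littermates of the lines (points are arrays, open for Xist-high and filled for Xist-low arrays; lines and whiskers are mean and SD, n = 3; each panel has its own axis, which does not start at 0). Sv2c lies at 6.70 or lower in all 6 Nav1.7 arrays and at 7.02 or higher in the other 12, and Syn1 has its highest mean in the Nav1.8 littermates.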

How the data were processed

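Total RNA of whole DRG was labelled as biotin-labelled cRNA and hybridized to Affymetrix mouse genome arrays. The authors processed the scans in Affymetrix Expression Console. The summary method, the normalization and the version are not given in the sources used here. The deposited values are log2 intensities per probe set, already normalized between arrays by the authors (array medians 6.33 to 6.36), and were used unchanged. A between-array scaling of this kind can hide a shift shared by all genes.

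Of 45101 probe sets, 64 controls, 932 that name several genes and 9160 that the annotation does not list were left out. The 34945 named for 1 gene gave 18193 genes, each read from its brightest probe set over all arrays. Groups came from the sample labels. limma 3.58.1 (R 4.3.3; lmFit, eBayes) fitted 6 group means to the 18 arrays, which left 12 residual degrees of freedom, and p-values were adjusted by Benjamini-Hochberg over all genes, with a threshold of 0.05. Standard errors are from this fit, and n is 3 arrays per group. An exact permutation test of 3 against 3 arrays cannot go below 0.10, and none was used. The fit was tested on simulated data, and a change that did not pass is not shown to be absent.

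The release genes, the pathway lists and the marker lists were chosen with earlier results of these data known. The genes named were those past the threshold in a KO comparison or in a difference of KO effects, the 4 with the smallest p in each KO comparison and, among those past the threshold, in each littermate comparison, and a core set of the fusion machinery. The genes of the core set without a probe set here were not analysed. A few more were named after their values were seen. They were *Snap29*, *Unc13b* and *Unc13d* for passing in 2 littermate comparisons, *Rims2* and *Rims4* as relatives, *Stxbp5* for 1 probe set, and *Snap25* between littermates. From the pathway lists, genes past the threshold were named.

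Alternatives were the groups fitted alone, quantile and median scaling, array weights, genes under the 40th percentile of brightness left out, a gene's average over its probe sets, every probe set by itself, probe sets ending in _x_at, _s_at or _a_at left out, limma with trend and robust prior, the replicate number as a block, a term for *Xist* class, single arrays left out in turn and the study's thresholds. Promoter windows are from RefSeq (GRCm38.p6).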

Additional observations from a re-analysis of the deposited data

Results flagged for a closer look

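In 10 cases a test of the difference between lines (limma, adjusted p under 0.05) found that the KO effect of a release gene was not the same in Nav1.7 as in another line. Against Nav1.8 the difference in log2 fold change, Nav1.7 minus Nav1.8, was -0.55 for *Syt6*, -0.39 for *Rims1*, 0.36 for *Rims3* and 0.29 for *Stxbp4*. Against Nav1.9 it was -0.69 for *Syt6*, -0.53 for *Syt7*, 0.51 for *Stx11*, 0.41 for *Stx16*, 0.30 for *Stxbp4* and -0.19 for *Nsf*. *Syt6* and *Stxbp4* were found in both comparisons, which share the Nav1.7 arrays. The shares were 5.48% against Nav1.8 (beside 2.15% of all genes) and 8.22% against Nav1.9 (beside 2.82%). Only *Syt7*, *Stx11* and *Syt6* against Nav1.9 passed with any 1 array left out. With a term for *Xist* class none of those against Nav1.8 passed. Without the shared types of probe set *Syt6* differed by 0.040 from Nav1.9. A gap between lines that KO and littermate arrays share cancels in the difference of KO effects, while one confined to the littermates enters it. *Syt6* was higher and *Stx16* lower in the Nav1.7 littermates than in those of both other lines.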

How the results depend on the processing

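The 11 release genes of the Nav1.7 KO comparison stood beside 787 calls over all genes. They became 2 (beside 286) with its groups fitted alone and 7 (beside 674) with the mean of all probe sets. Quantile scaling gave 12 (795), dim genes left out 13 (907) and the trend and robust prior 15 (928). With dim genes left out fewer genes were tested, so 907 was a larger share of them than 787 was of 18193. Leaving out types of probe set also changed the number tested, so counts under these settings are not shares of a fixed number. When each probe set was tested, 14 genes had at least 1 that passed (810). At the study's thresholds (unadjusted p under 0.01 and fold over 1.5) the count was 0, beside 123 by limma and 105 by analysis of variance on 6 arrays. That analysis of variance after Benjamini-Hochberg adjustment gave 0, beside 46. With 1 array left out the count was 5 to 8, beside 522 to 799. Smaller sets of arrays also leave fewer residual degrees of freedom. Without probe sets ending in _x_at, _s_at or _a_at the count was 8 (beside 640). *Syt6* turned then to 0.032 in Nav1.7 KO and to -0.0078 in Nav1.9 KO. It turned to 0.040 in the difference of Nav1.7 and Nav1.9 and to -0.024 between their littermates. *Rab3a* turned to -0.076 in Nav1.7 KO. With the mean of all probe sets *Vamp2* turned to 0.027 and *Syt2* to 0.029. *Napb* lay between -0.064 and 0.0025 with 1 array left out, above 0 only without Nav1.7 KO replicate 3. Nav1.8 KO kept 0 calls under every alternative run, beside 0 to 10 over all genes. Nav1.9 KO had 1, *Syt7*, under the trend and robust prior, beside 173.

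The 4 differences between Nav1.7 and Nav1.8 stood beside 391 over all genes. They became 1 with the groups fitted alone (beside 265), with median centring (350), without the shared types of probe set (316) or with a replicate block (346). The *Xist* class gave 0 (beside 111), array weights 5 (479), each probe set tested 5 (434) and dim genes left out 6 (499). With 1 array left out the count was 0 to 4 (beside 214 to 487), 0 without Nav1.8 KO replicate 3. The 6 between Nav1.7 and Nav1.9, beside 513, became 3 with the groups fitted alone (369) and 4 with the mean of all probe sets (469). They became 7 with each probe set tested (581) or the trend and robust prior (633). With 1 array left out the count was 3 to 5 (396 to 546). Between littermates, the 23 of Nav1.7 and Nav1.8 stood beside 4243 over all genes. They became 39 genes with at least 1 passing probe set when each was tested (beside 5972). The *Xist* class gave 8 (1256), and 1 array left out gave 14 to 23 (2944 to 3766). The 12 of Nav1.7 and Nav1.9, beside 2221, became 7 with the groups fitted alone (1390) and 22 with each probe set tested (3065). The *Xist* class gave 7 (863), and 1 array left out gave 8 to 11 (1436 to 1918). The 13 of Nav1.8 and Nav1.9, beside 2329, became 6 with the groups fitted alone (1262) and 21 with dim genes left out (2731). Each probe set tested gave 27 (3903), the trend and robust prior 20 (2601) and array weights 20 (3077). With 1 array left out the count was 9 to 15 (1150 to 2115). Where no value shows it, the cause was not tested.

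Same-numbered KO and littermate arrays deviated together with r of 0.02, 0.25 and 0.27 in Nav1.7, 0.05, -0.11 and 0.26 in Nav1.8 and 0.03, 0.06 and -0.19 in Nav1.9, so the numbers were not read as pairs. With the replicate block the counts were 10 in Nav1.7 KO (beside 730 over all genes) and 0 in the KO of Nav1.8 (beside 2) and Nav1.9 (beside 69).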

Other observations

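Other cell markers were read over the same arrays. In Nav1.7 KO DRG the 14 pan-neuronal, 10 Schwann cell, 11 fibroblast, 11 endothelial and 16 macrophage markers gave 0 calls, and of 9 satellite glia markers *Fabp7* rose. In Nav1.9 KO DRG the nerve injury genes that fell included *Atf3*, *Sprr1a*, *Npy* and *Gpr151*, and their median log2 fold change was -0.52, beside 0.27 in Nav1.7 KO, where *Jun*, *Flrt3* and *Bdnf* rose.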
